A study of Mus musculus with 16 samples.

Results

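Matrix metalloproteinases cut the proteins of the extracellular matrix, and their tissue inhibitors block them. The values described here are those of 10 mouse genes of these families, 7 metalloproteinases (Mmp2, Mmp3, Mmp9, Mmp11, Mmp12, Mmp13 and Mmp14) and 3 inhibitors (Timp1, Timp2 and Timp3). They were taken by exact gene symbol from a table of 24681 symbols, each matched 1 row, and all 10 passed the filter on low counts that left 15610 genes for testing. RNA had been sequenced from 16 whole tumours of AU565(pv), a human breast cancer line with amplified HER2, growing at a mammary site in SCID mice (hosts with no mature T or B cells). Tumours of 20 to 25 mm2 were treated by intraperitoneal injection and harvested on day 2, with 4 mice in each of 4 groups. The vehicle group received D5W and PBS. The trastuzumab group received this antibody against HER2 at 10 mg/kg with D5W, the panobinostat group received this histone deacetylase inhibitor at 15 mg/kg on days 0 and 1 with PBS, and the combination group received both drugs at these doses. The labels disagree on whether trastuzumab was given on day 0 or on day 1. Libraries are named by group and mouse number, and no number occurred in more than 1 group.

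Metalloproteinases are zinc enzymes made as inactive pro-forms, and most are secreted. In tumours they come largely from fibroblasts, macrophages and neutrophils of the host. Mmp14 sits in the cell membrane, and its complex with Timp2 is known to bind the pro-form of Mmp2 and help to activate it, so Timp2 is both an inhibitor and a partner. RNA levels say nothing of activation or of the balance of active enzyme and inhibitor.

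The tumour cells are human and the table counts mouse genes, so the values are read as mainly those of host cells, and how many human reads they hold was not measured. Total counts ran from 4848244 to 8140782 per library. Levels are given as CPM, the counts of a gene scaled to a common library size by the total of the tested genes and by TMM, a correction for differences in composition. Changes are log2 values from edgeR's quasi-likelihood test fitted to all 16 libraries, with an approximate standard error (SE). Calls were made where the p adjusted over all 15610 genes by Benjamini and Hochberg was under 0.05. The summed level of 10 fibroblast markers ran from 17400 to 26740 CPM in vehicle, 14270 to 22700 in trastuzumab, 13320 to 21120 in panobinostat and 13700 to 16970 in combination libraries. That of 11 macrophage markers ran from 7682 to 10500, 8317 to 9514, 7228 to 7943 and 7862 to 10250 CPM in the same order, and no marker of either list was at 0 in a whole group. The sums are unweighted and rest mostly on a few genes. In vehicle the fibroblast sum had a mean of 22490 CPM, with 8759 from Col3a1, 4942 from Col1a1 and 4562 from Col1a2. The macrophage sum had a mean of 8817 CPM there, with 4675 from Lyz2. The labels name mouse stroma and immune cells in these tumours, and markers of both were measured in every group.

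In mm10 with the GENCODE vM21 annotation, Mmp13, Mmp12 and Mmp3 lie on the plus strand of chromosome 9, at 7272514 to 7283331, 7344381 to 7369499 and 7445822 to 7455975. Mmp2 is on chromosome 8 at 92827291 to 92853420, Mmp9 on chromosome 2 at 164940780 to 164955850 and Mmp14 on chromosome 14 at 54431612 to 54445364, all on the plus strand. Mmp11 is on the minus strand of chromosome 10 at 75923222 to 75936496. Timp3 is on the plus strand of chromosome 10 at 86300372 to 86349506, Timp2 on the minus strand of chromosome 11 at 118301069 to 118355740 and Timp1 on the plus strand of chromosome X at 20870166 to 20874735. Exons of Mmp11 share 155 bases with Chchd10, those of Mmp12 share 157 bases with Mmp1b and those of Timp3 share 1733 bases with Syn3, each on the opposite strand. The library kit does not mark strand, so reads in the shared bases cannot be told apart.

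RefSeq's table of GRCm38.p6 start sites matched 8 of the 10 genes, all but Mmp2 and Mmp9. The 120 bases before each start were searched on both strands for TGANTCA, the letters bound by AP-1 (Fos and Jun proteins), for GGGCGG, the letters bound by Sp1, and for TATAAA. No 2 matches overlap in the windows shown. TGANTCA occurred in 3.41% of all 32851 windows of this length in the table, GGGCGG in 26.48% and TATAAA in 6.34%. The windows of Mmp3, Mmp13 and Mmp12 are shown because they hold TGANTCA and because the levels of Fos and Junb fell with panobinostat. That of Mmp14 is shown because its own level fell with this drug. Capitals mark the motifs, and all are written 5′ to 3′ on the plus strand.
Mmp3, chr9:7445702-7445821: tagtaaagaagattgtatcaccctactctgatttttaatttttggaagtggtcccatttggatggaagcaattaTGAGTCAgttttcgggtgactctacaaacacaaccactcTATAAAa
Mmp13, chr9:7272394-7272513: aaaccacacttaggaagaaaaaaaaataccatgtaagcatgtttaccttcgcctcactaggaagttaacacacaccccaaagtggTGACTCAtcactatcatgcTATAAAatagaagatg
Mmp12, chr9:7347254-7347373: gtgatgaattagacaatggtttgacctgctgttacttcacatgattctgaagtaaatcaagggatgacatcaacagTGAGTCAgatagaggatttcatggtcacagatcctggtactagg
Mmp14, chr14:54431478-54431597: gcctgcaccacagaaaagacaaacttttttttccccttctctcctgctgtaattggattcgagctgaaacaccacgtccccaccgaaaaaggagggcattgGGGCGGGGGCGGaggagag

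TGANTCA began 46 bases before the start of Mmp3, 35 before that of Mmp13 and 44 before that of Mmp12. The Mmp12 start used here lies 2993 bases inside the GENCODE gene, and the window before the gene's other RefSeq start held none of the motifs. TATAAA began 7 bases before the start of Mmp3 and 16 before that of Mmp13. Mmp14 held GGGCGG at 19 and at 13 bases before its start and neither of the other motifs. The same letters were also found before Mmp11, Timp1, Timp2 and Timp3, whose windows are not shown. These matches describe letters in a window and nothing about binding.

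Per kb of exon in GENCODE vM21, a scale that allows levels of different genes to be set side by side, 4 genes stood above the others in vehicle tumours. Timp1 had a level of 227 ± 33.7 CPM per kb, Timp2 216 ± 40.6, Mmp2 183 ± 30.3 and Mmp3 149 ± 58.8 (SD, n = 4), and the libraries of neighbours in this order overlapped. Mmp14, at 49.0 ± 5.36, lay below all of them and above Timp3 at 16.3 ± 2.36, with no overlap of libraries on either side. Mmp13 (13.03 ± 6.61), Mmp11 (11.7 ± 0.991), Mmp9 (10.3 ± 2.46) and Mmp12 (7.27 ± 4.47) followed, each overlapping the next. With both drugs the order of Mmp2 (129 ± 24.1) and Mmp3 (133 ± 73.0) was exchanged, but their libraries overlapped. Timp1 led in each of the 4 groups, and Mmp14 was the fifth in each. The exon lengths are those of all annotated transcripts of a gene merged, so a gene with a long but rarely used exon is placed too low.

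The genes differed in how much they varied between mice of 1 group. The mean coefficient of variation of the CPM level over the 4 groups was 9.28% for Mmp14, 11.6% for Mmp11 and 12.4% for Timp2. It was 49.6% for Mmp13, 43.6% for Mmp3 and 43.3% for Mmp12, and from 20.4% to 25.2% for Mmp2, Timp1, Timp3 and Mmp9. A change of a given size was thus easier to detect for Mmp14 or Timp2 than for Mmp3, Mmp12 or Mmp13.

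**Figure D1:**
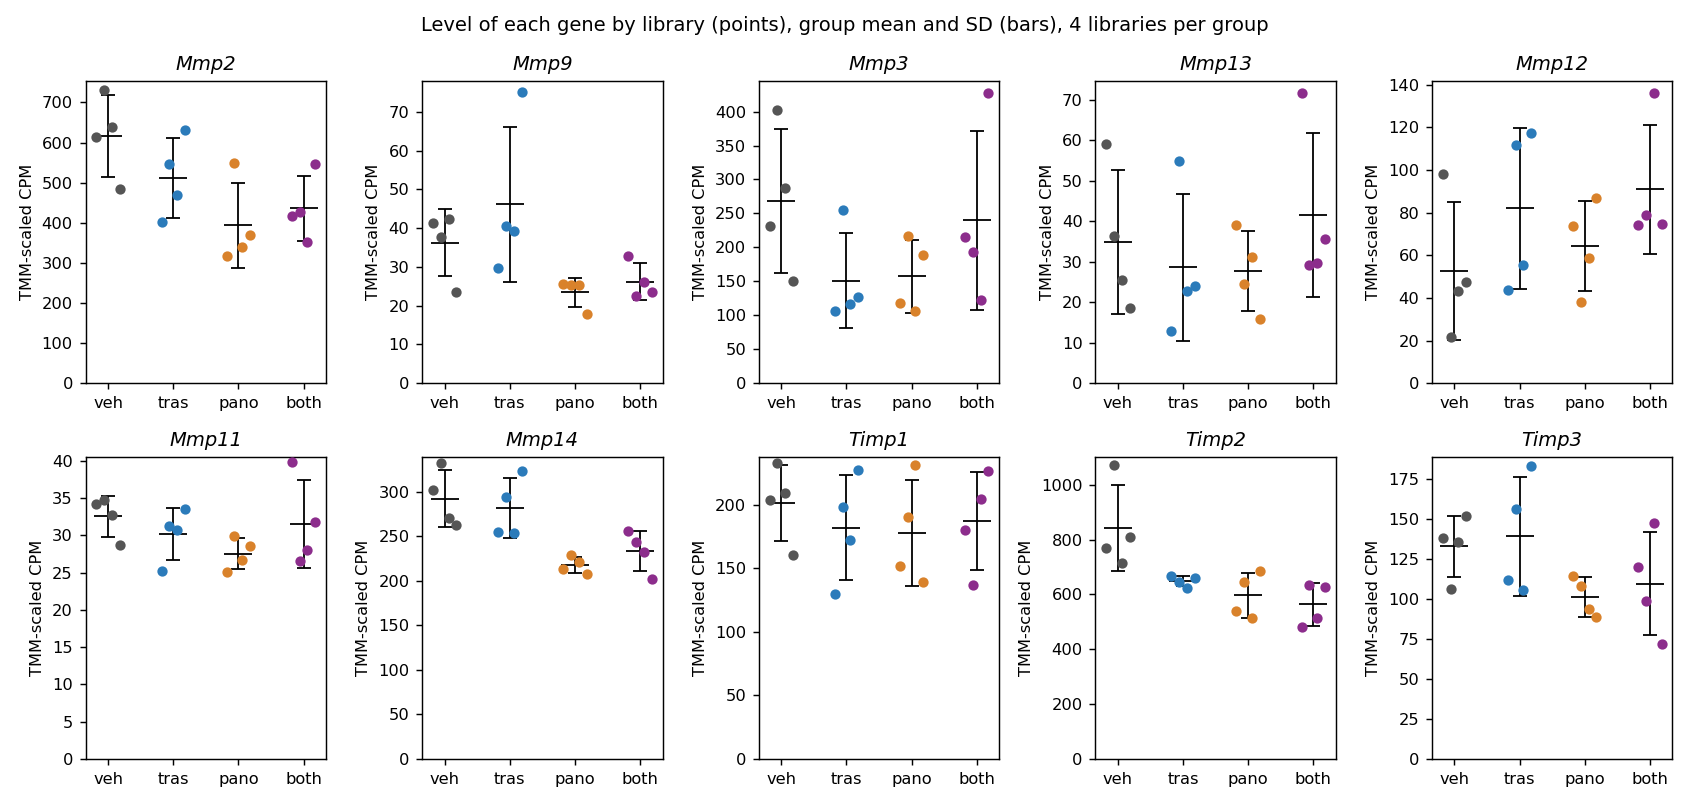
Levels of the 10 genes in TMM-scaled CPM (vertical axes, linear, each starting at 0) in vehicle (veh), trastuzumab (tras), panobinostat (pano) and combination (both) tumours; each point is 1 library, the long line the mean and the bars 1 SD over 4 libraries. Timp2 lies below every vehicle library in all 12 treated libraries, Mmp14 in panobinostat libraries lies below all vehicle and trastuzumab libraries, and Mmp3, Mmp12 and Mmp13 vary most within groups.

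Timp2 was the only one of the 10 genes called for the combination against vehicle, and it fell. Its level was 771, 1073, 716 and 809 CPM in vehicle mice 3, 6, 21 and 29, and 480, 635, 515 and 628 CPM in combination mice 2, 11, 16 and 22. It was 667, 646, 623 and 659 CPM in trastuzumab mice 12, 15, 20 and 24 and 541, 647, 514 and 684 CPM in panobinostat mice 4, 7, 8 and 13. The lowest vehicle library was above the highest library of each treated group, while the 3 treated groups overlapped each other in part. Here and below, the share of all genes without overlap between groups was not counted. The mean was 842 ± 158 CPM in vehicle and 565 ± 78.8 CPM in the combination (SD, n = 4), a log2 change of -0.58 (SE 0.14, approximate 95% interval -0.87 to -0.29, edgeR adjusted p = 0.0361). In this comparison 2.2% of all genes tested were called, and 0.5% were called lower. Less RNA of a gene per cell and fewer of the cells that hold it cannot be told apart in whole tumours.

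Against vehicle, Timp2 changed by -0.50 on the log2 scale with panobinostat (SE 0.14, edgeR adjusted p = 0.192). With trastuzumab it changed by -0.38 (SE 0.14, adjusted p = 1.00), and neither change was called by edgeR. Over the 8 libraries with against the 8 without panobinostat its change was -0.35 (SE 0.10, edgeR adjusted p = 0.0663), which DESeq2 called (adjusted p = 0.0128). The comparisons with vehicle share its 4 libraries, so their values are not independent of each other. Without vehicle mouse 6, which had the highest level of the 16 libraries, the change for the combination was -0.43 and the edgeR adjusted p 0.128. The call was also lost without vehicle 3 or 29, trastuzumab 15 or 24, panobinostat 4, or combination 2, 11 or 16, with adjusted p from 0.0507 to 0.126 over these 8 fits. Summed fibroblast markers, mostly collagen RNA, were lower in the combination libraries than in all vehicle libraries. Those of trastuzumab and of panobinostat libraries overlapped vehicle. Summed macrophage markers overlapped vehicle in each treated group. The part of either cell type in the change of Timp2 was not tested.

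Mmp14, the membrane-bound collagenase and activator of Mmp2, fell with panobinostat when the 8 libraries that had the drug were set against the 8 that did not. Its level was 213, 229, 221 and 208 CPM in panobinostat mice 4, 7, 8 and 13 and 256, 243, 232 and 202 CPM in combination mice 2, 11, 16 and 22. It was 302, 333, 271 and 263 CPM in vehicle mice 3, 6, 21 and 29 and 254, 294, 254 and 324 CPM in trastuzumab mice 12, 15, 20 and 24. Of the libraries with panobinostat, combination mouse 2 alone reached into the range of those without it, just above trastuzumab mice 12 and 20. The mean was 226 CPM with and 287 CPM without panobinostat, a log2 change of -0.35 (SE 0.08, interval -0.51 to -0.18, edgeR adjusted p = 0.0204). In this comparison 3.02% of all genes were called, and 0.942% were called lower. Between single groups Mmp14 changed by -0.42 for panobinostat against vehicle (SE 0.11, adjusted p = 0.158) and by -0.32 for the combination against vehicle (SE 0.11, adjusted p = 0.166), both without overlap and not called by edgeR. Without trastuzumab mouse 24 the change over 8 against 8 libraries was -0.31 and the adjusted p 0.0556, and the call was kept without any of the other 15 libraries.

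Mmp9, a gelatinase stored in neutrophil granules and also made by macrophages, was the other gene called in this comparison. Its level was 25.5, 25.3, 25.2 and 17.9 CPM in panobinostat mice 4, 7, 8 and 13 and 32.8, 22.6, 26.1 and 23.4 CPM in combination mice 2, 11, 16 and 22. It was 41.4, 37.6, 42.4 and 23.6 CPM in vehicle mice 3, 6, 21 and 29 and 29.7, 40.5, 39.2 and 75.1 CPM in trastuzumab mice 12, 15, 20 and 24. All libraries without panobinostat but vehicle 29 and trastuzumab 12 were above every library with it. The mean was 24.9 CPM with and 41.2 CPM without panobinostat, a log2 change of -0.72 (SE 0.18, interval -1.09 to -0.35, edgeR adjusted p = 0.0321). Without trastuzumab mouse 24, the highest library, the change was -0.54 and the adjusted p 0.0553. The call was also lost without vehicle 3, 6 or 21, panobinostat 4, 7, 8 or 13, or combination 11 or 22, with adjusted p from 0.0527 to 0.0697.

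The summed level of 9 neutrophil markers moved in the same direction as Mmp9, from 178 to 266 CPM in vehicle and 196 to 240 CPM in trastuzumab libraries to 124 to 202 CPM in panobinostat and 123 to 182 CPM in combination libraries. Of the 6 that were tested, S100a8, S100a9, Cxcr2 and Retnlg fell over 8 against 8 libraries, by 1.37, 1.57, 0.75 and 2.18 on the log2 scale (edgeR adjusted p from 0.000885 to 0.00558). The other 2 did not pass the test, Csf3r at -0.23 (adjusted p = 0.159) and Ltf, with 55.9 CPM with and 39.4 CPM without the drug, at 0.50 (adjusted p = 0.682). Retnlg was near the floor, with at most 17 counts in any library and group means from 0.264 CPM (panobinostat) to 2.57 CPM (trastuzumab). Ly6g, Ngp and Camp had too few counts to be tested, with at most 7 counts in any library and group means of at most 0.287 CPM (Ngp with panobinostat), and Ly6g was at 0 in all 4 panobinostat libraries. Of the 10 fibroblast markers, Col1a2 and Fap fell in the same comparison and 8 did not pass the test. All 10 of these markers had negative log2 changes there, the median being -0.366, beside -0.002 for all genes tested. The unadjusted edgeR p was under 0.05 for 6 of the 10 and for 13.5% of all genes. The part of either cell type in the levels of Mmp9 and Mmp14 was not tested.

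Mmp2, the other gelatinase and a product chiefly of fibroblasts, did not pass the test in any comparison. Its level was 615, 731, 639 and 484 CPM in vehicle mice 3, 6, 21 and 29 and 401, 546, 469 and 631 CPM in trastuzumab mice 12, 15, 20 and 24. It was 316, 550.0, 340.3 and 369 CPM in panobinostat mice 4, 7, 8 and 13 and 418, 426, 352 and 547 CPM in combination mice 2, 11, 16 and 22. In each group with panobinostat 3 of 4 libraries were below every vehicle library, and the fourth was within the vehicle range. The log2 change over 8 against 8 libraries was -0.44 (SE 0.13, interval -0.72 to -0.16, edgeR adjusted p = 0.0992). DESeq2 called it (adjusted p = 0.0374), as did edgeR without panobinostat mouse 7 (adjusted p = 0.0253).

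Mmp3, a stromelysin that cuts many matrix proteins and activates other pro-forms, had its lowest means with either drug alone. Its level was 231, 403, 288 and 151 CPM in vehicle mice 3, 6, 21 and 29, and 106, 255, 116 and 127 CPM in trastuzumab mice 12, 15, 20 and 24. It was 118, 216, 106 and 189 CPM in panobinostat mice 4, 7, 8 and 13 and 215, 194, 122 and 428 CPM in combination mice 2, 11, 16 and 22. All groups overlapped. The interaction of the drugs, the change with panobinostat on top of trastuzumab less that on top of vehicle, was 1.43 on the log2 scale (SE 0.53, interval 0.31 to 2.56), with an unadjusted p of 0.0155 and an edgeR adjusted p of 1.00. For the interaction 0% of genes were called by edgeR, and 0 by DESeq2 and by limma voom. At an unadjusted p under 0.05, 1 of the 10 genes, Mmp3, and 1.79% of all genes passed.

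Mmp13 is a collagenase and Mmp12 the elastase of macrophages. Mmp13 ranged from 18.6 to 59.0 CPM in vehicle, 12.9 to 54.8 in trastuzumab, 15.8 to 39.0 in panobinostat and 29.3 to 71.5 in combination libraries, and the groups overlapped. Its log2 change for the combination against vehicle was 0.26 (interval -0.63 to 1.15, edgeR adjusted p = 0.863). Mmp12 ranged from 21.6 to 98.0, 44.0 to 117, 38.0 to 87.0 and 74.1 to 136 CPM in the same order of groups. Its change for the combination against vehicle was 0.79 (interval -0.04 to 1.63, edgeR adjusted p = 0.390). Both intervals hold no change as well as rises of more than 1 on the log2 scale, so neither is excluded.

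Mmp11, a stromelysin of tumour-associated fibroblasts that cuts few matrix proteins itself, varied little. Its means were 32.6 ± 2.75 CPM in vehicle, 30.2 ± 3.47 in trastuzumab, 27.6 ± 2.08 in panobinostat and 31.5 ± 5.95 in combination libraries (SD, n = 4), and the groups overlapped. The log2 change for the combination against vehicle was -0.05 (interval -0.32 to 0.23, edgeR adjusted p = 0.929).

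The other inhibitors did not pass the test in any comparison. Timp1, a secreted inhibitor known to bind the pro-form of Mmp9, had means of 202 ± 29.9, 182 ± 41.5, 178 ± 41.7 and 187 ± 38.5 CPM in vehicle, trastuzumab, panobinostat and combination libraries (SD, n = 4). Its log2 change over 8 against 8 libraries with and without panobinostat was -0.07 (interval -0.36 to 0.22, edgeR adjusted p = 0.909). Timp3, which is bound to the matrix and also inhibits ADAM proteases, had means of 133 ± 19.2, 139 ± 37.0, 101 ± 12.2 and 109 ± 32.2 CPM, a change of -0.37 (interval -0.68 to -0.07, adjusted p = 0.236). How reads in the exon bases shared with Syn3 on the other strand were counted is not given, so the Timp3 level may be too high or too low.

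**Figure D2:**
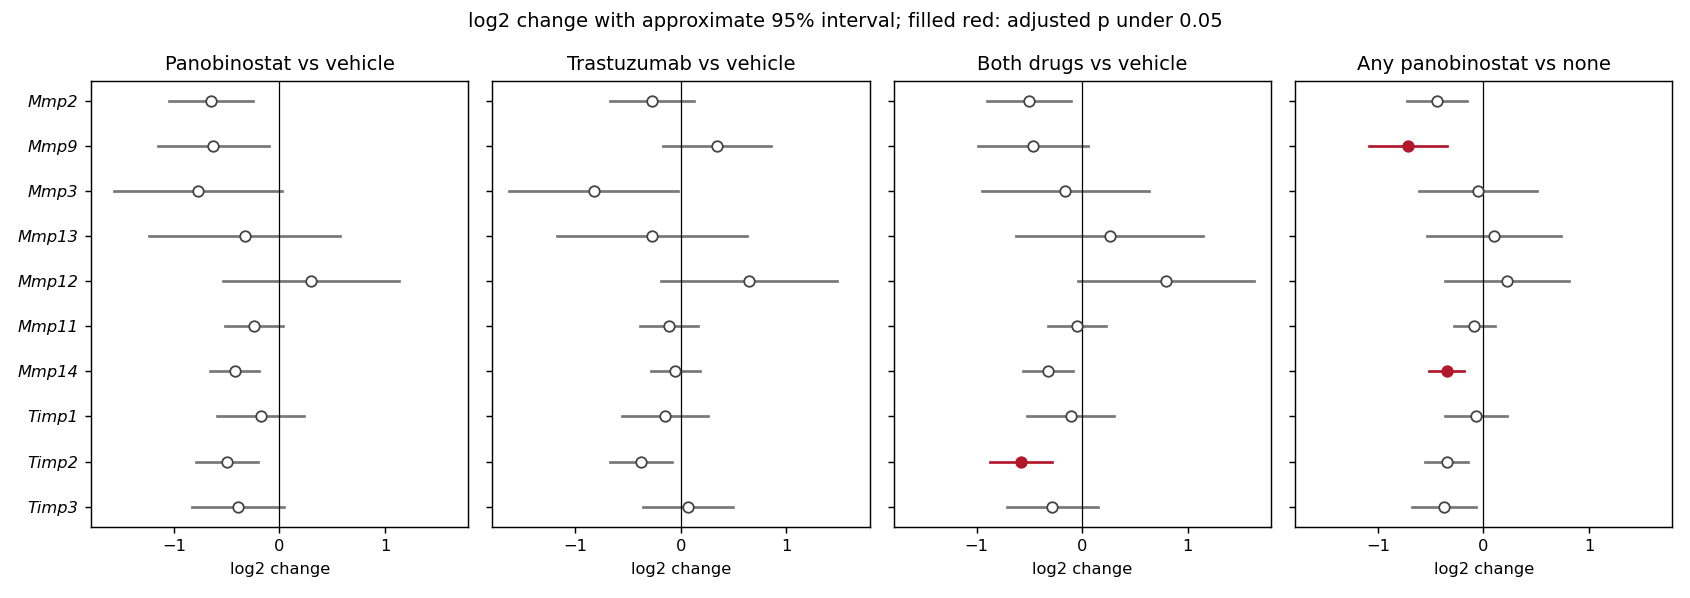
Log2 changes of the 10 genes (horizontal axes) in 4 comparisons, with approximate 95% intervals as bars; filled red points passed an edgeR adjusted p under 0.05. The combination against vehicle has 1 called gene, Timp2 at -0.58, and the libraries with panobinostat against those without have Mmp9 at -0.72 and Mmp14 at -0.35; the intervals of Mmp3, Mmp12 and Mmp13 are the widest.

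Over the 10 genes, panobinostat against vehicle gave 9 negative changes and a median of -0.41 on the log2 scale, beside a median of 0.01 over all genes tested. None of the 10 was called by edgeR, beside 0.192% of all genes. At an unadjusted p under 0.05, 4 of the 10 and 8.1% of all genes passed. By DESeq2, Mmp14 and Timp2 were called (adjusted p = 0.0224 and 0.0357), beside 147 of all genes. For the combination against vehicle 8 of the 10 changes were negative, with a median of -0.22 beside -0.01 over all genes, and for libraries with against those without panobinostat 8 were negative, with a median of -0.22 beside -0.002. The 10 genes are measured in the same libraries and these 3 comparisons share libraries, so the directions are not independent of each other.

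Trastuzumab alone left all 10 genes without a call, with 7 negative changes, a median of -0.13 and 0% of all genes called. At an unadjusted p under 0.05, 2 of the 10 and 3.52% of all genes passed, and DESeq2 called 8 genes, none of the 10. Over 8 libraries with and 8 without trastuzumab, 6 of the 10 changes were positive, none was called and 0.147% of all genes were. At an unadjusted p under 0.05, 1 of the 10 and 5.94% of all genes passed. The combination against panobinostat gave 9 positive changes with a median of 0.15. None was called, beside 0% of all genes by edgeR and 9 genes by DESeq2. At an unadjusted p under 0.05, 0 of the 10 and 4.48% of all genes passed. The combination against trastuzumab gave 5 positive and 5 negative changes, none called, and 0.628% of all genes called. At an unadjusted p under 0.05, 2 of the 10 and 9.26% of all genes passed there. The lowest adjusted p of the 10 there was that of Mmp9, at a log2 change of -0.81 (SE 0.25, edgeR adjusted p = 0.184).

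Ratios of levels per kb within a library set proteinases beside inhibitors. The summed level of the 7 metalloproteinases over that of the 3 inhibitors was 0.914 ± 0.117 in vehicle, 0.841 ± 0.116 in trastuzumab, 0.757 ± 0.138 in panobinostat and 0.941 ± 0.188 in combination libraries (SD, n = 4), and the groups overlapped. Mmp14 over Timp2 was 0.230 ± 0.0260 in vehicle, 0.284 ± 0.0319 in trastuzumab, 0.242 ± 0.0351 in panobinostat and 0.276 ± 0.0593 in combination libraries. Mmp9 over Timp1 ran from 0.0368 to 0.0511 in vehicle, from 0.0513 to 0.0829 in trastuzumab, from 0.0274 to 0.0422 in panobinostat and from 0.0260 to 0.0457 in combination libraries. The trastuzumab libraries were thus above all others for that ratio, but the lowest (0.05126) was just above the highest vehicle library (0.05108). The other groups overlapped, and the ratios were not tested. Mmp2 made up 43.8% ± 2.90 of the summed metalloproteinase level in vehicle and 37.7% ± 3.23 in combination libraries, and the highest combination library (40.45%) was just below the lowest vehicle library (40.46%).

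After the mean of its group was taken from each log2 level, 35 of the 45 pairs of the 10 genes were positively correlated over the 16 libraries. Mmp2 and Mmp3 had the highest coefficient, with Pearson's r = 0.785 (permutation p = 0.00116, two-sided, within groups, adjusted over 45 pairs 0.0522) and Spearman's rho = 0.847 (permutation p = 0.000270, adjusted 0.0121). Without the 2 libraries farthest from the median of Mmp2, r was 0.73. Mmp9 and Mmp14 had r = 0.675 (permutation p = 0.0174, adjusted 0.195, rho = 0.603, permutation p = 0.0382, adjusted 0.191), and 0.499 without the 2 farthest libraries of Mmp9. The lowest coefficient was that of Timp2 and Timp3, at r = -0.480 (permutation p = 0.0597, adjusted 0.269, rho = -0.403, permutation p = 0.134, adjusted 0.355), and -0.357 without the 2 farthest libraries of Timp2. No pair passed by Pearson's r after adjustment.

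By the same measure, the tested genes most like Timp2 were Laptm5 (r = 0.961), a lysosomal membrane protein of blood cells, Grn (0.930) and Lman2 (0.930). Those most like Mmp9 were Dkk3 (0.945), Cdh11 (0.916), a cadherin of mesenchymal cells, and Lrrc15 (0.911). Those most like Mmp2 were C1qc (0.930), a complement gene of macrophages, Aebp1 (0.923) and Slc10a7 (0.889). Mmp14 was most like BC034090 (0.873), Cpxm2 (0.859) and the protease inhibitor gene Serpine2 (0.844). Mmp13 was most like Spp1 (0.876), the osteopontin gene, Clec5a (0.862) and Rgs5 (0.853), Mmp12 like Ctnna2 (0.890), Fam83g (0.862) and Rprd1a (0.861), and Mmp3 like Txndc16 (0.925), Pros1 (0.920) and Acot9 (0.918). Mmp11 was most like Pmaip1 (0.846), Sar1a (0.836) and Mxra8 (0.822), Timp1 like Rnd3 (0.883), Tsku (0.875) and Sept2 (0.864), and Timp3 like Bace1 (0.910), Kirrel (0.900) and Col23a1 (0.899). These are the highest of many coefficients over the same 16 libraries and are given as descriptions with no test.

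A list of 76 other genes of matrix turnover was set beside the 10, and 73 were in the table and 69 tested. Col1a1, Col1a2, Col3a1, Dcn and Fap of this list are also among the fibroblast markers used above. The genes not tested were Mmp1a, Mmp1b and Mmp20, for which no row matched, Mmp7, which had no value in the panobinostat-treated libraries, and Mmp21, Plg and Serpinf2, which did not pass the filter. For libraries with against those without panobinostat, 1 of the 69 rose, 8 fell and 60 did not pass the test, beside the 3.02% of all genes called. The median log2 change of the list was -0.09 beside -0.002 over all genes.

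Among the other metalloproteinases, 1 of 11 rose and none fell. Mmp25, a membrane-anchored enzyme known from leukocytes, rose from 1.70 CPM in vehicle to 6.42 CPM in the combination, a log2 change of 1.91 (SE 0.31, edgeR adjusted p = 0.00384) with no overlap of libraries. Its counts were low, at 8 to 15 per library in vehicle and 25 to 64 in the combination. Mmp25 also rose with panobinostat over 8 against 8 libraries, by 1.18 (adjusted p = 0.00699), and for the combination against trastuzumab, by 1.39 (adjusted p = 0.0427). The last call was kept only without vehicle 6, trastuzumab 12 or combination 2 or 16, and reached an adjusted p of 0.161 without another library, 0.0629 by limma voom and 0.198 with only the groups compared. Mmp8, the neutrophil collagenase, had 3.72 CPM in the combination and 1.02 CPM in vehicle without overlap (log2 change 1.90, edgeR adjusted p = 0.0551). Mmp8 was near the floor, with 1 to 8 counts in vehicle and 13 to 44 in combination libraries. It was not called, and 5 of the 6 tested neutrophil markers changed in the other direction there. Of the 3 other inhibitors, Timp4, Reck and A2m, none passed the test.

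Plasmin, made from plasminogen by urokinase, is a known activator of metalloproteinase pro-forms. Of 5 tested genes of this system 1 fell with panobinostat over 8 against 8 libraries. Plaur, the receptor of urokinase, went from 16.4 to 12.6 CPM and fell by 0.39 (SE 0.10, edgeR adjusted p = 0.0468), a call kept only without vehicle 29 or trastuzumab 12 and with an adjusted p of up to 0.128 in the other 14 fits. It was also lost with total-count scaling (adjusted p = 0.0725), no filter on low counts (0.0850), limma voom (0.0623) and totals over all symbols (0.0548). The urokinase gene Plau had a change of -0.09 (adjusted p = 0.934).

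Of 14 ADAM and ADAMTS genes, Adamts1, a protease of proteoglycans, fell for the combination against vehicle, from 44.2 to 28.99 CPM (log2 change -0.61, SE 0.15, edgeR adjusted p = 0.0361). This call was lost without vehicle 6 or 21, trastuzumab 15, panobinostat 4 or 8, or combination 2, 11 or 22, with adjusted p of up to 0.125, and with no filter on low counts (0.0521) or only the groups compared (0.130). None of the 14 was called over 8 against 8 libraries, and none of 11 activators and partners such as Furin and Bsg was called in either comparison. Fap and Ctsk, a serine protease of activated fibroblasts and the collagen-cutting cathepsin K, both fell with panobinostat over 8 against 8 libraries. Ctsk had 223 CPM without and 116 CPM with the drug (log2 -0.94, SE 0.19, edgeR adjusted p = 0.00964). Fap went from 60.0 to 42.9 CPM (-0.49, SE 0.12, adjusted p = 0.0348). The Fap call was kept without vehicle 29, trastuzumab 12 or 20, panobinostat 7 or combination 2, and its adjusted p without each of the other 11 libraries ran from 0.0523 to 0.0798.

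Of 11 AP-1 and ETS factors, which are known to act on metalloproteinase promoters, 2 fell over 8 against 8 libraries. Fos fell from 25.1 to 16.2 CPM (log2 change -0.65, SE 0.12, edgeR adjusted p = 0.00738) and Junb from 159 to 123 CPM (-0.37, SE 0.08, adjusted p = 0.0102), and no library with panobinostat reached the lowest library without it for Junb. Fos was also called for panobinostat against vehicle, at -0.96 (SE 0.18, adjusted p = 0.0384), a call kept only without trastuzumab 12 or 24 or combination 16 or 22, with an adjusted p of up to 0.145 without another library and 0.0613 by limma voom. Mmp3, Mmp13 and Mmp12, whose windows shown above hold the AP-1 letters, did not pass the test over 8 against 8 libraries. Their log2 changes were -0.05 (interval -0.61 to 0.51), 0.10 (interval -0.53 to 0.74) and 0.22 (interval -0.36 to 0.81). These intervals hold falls as well as rises. AP-1 protein and its binding were not measured.

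Of 12 matrix proteins that these enzymes cut or bind, 3 fell with panobinostat over 8 against 8 libraries and 9 did not pass the test. Eln, elastin, went from 424 to 213 CPM (log2 change -1.0, SE 0.20, edgeR adjusted p = 0.0104). Sparc went from 3925 to 2910.0 CPM (-0.43, SE 0.09, adjusted p = 0.0129) and was also called for the combination against vehicle, at -0.62 (adjusted p = 0.0140), where it was lost without vehicle 6 or combination 11 (adjusted p of up to 0.0580) and with only the groups compared (0.0643). Col1a2, a chain of collagen I, went from 4363 to 2927 CPM (-0.58, SE 0.14, adjusted p = 0.0360). The Col1a2 call was kept without vehicle 29, trastuzumab 12, panobinostat 7 or combination 2 or 16, and had an adjusted p of up to 0.0931 without another library. Col1a1 had a change of -0.36 (SE 0.12, adjusted p = 0.159).

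**Figure D3:**
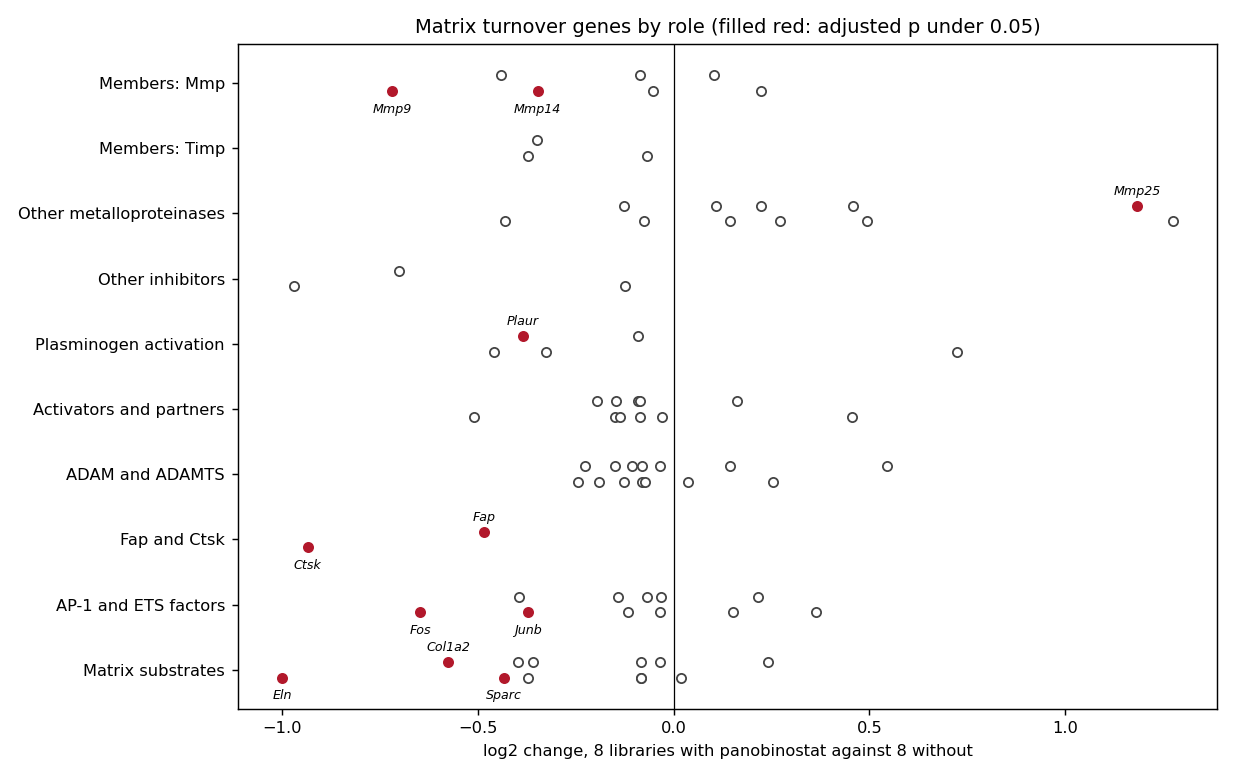
Log2 change between the 8 libraries with and the 8 without panobinostat (horizontal axis) for the 10 genes (top 2 rows) and 69 other genes of matrix turnover by role; each circle is a gene, its height within a row has no meaning, and filled red circles passed an edgeR adjusted p under 0.05. Mmp25, at 1.18, is the only named gene to the right of 0, and the named genes to the left run from -0.35 (Mmp14) to -1.0 (Eln).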

How the data were processed

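Whole tumours of 16 mice were sequenced. The authors deposited raw counts of mouse genes by symbol, as 1 table. The submitters' processing notes list CASAVA 1.8.2, TopHat2, HTSeq and build mm10. Whether human reads were removed, and all settings, are not given in the sources. A dot stood in place of a count for 1327 symbols in the 8 panobinostat-treated libraries, and these symbols were left out. The same 8 libraries are the treated side of the comparison with against without panobinostat. A difference in how their counts were made cannot be told apart from the drug there. Groups came from the labels. Each mouse gave 1 library, and no pair of replicates agreed within sampling noise.

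Counts were tested with edgeR 4.0.16 (R 4.3.3; filterByExpr, TMM, quasi-likelihood F test, 16 libraries in 1 fit), and p-values were adjusted over all 15610 genes. The SE is the log2 change over the square root of F. DESeq2 1.42.0 and limma 3.58.1 were alternatives, with other scalings, other filters, dots read as 0, only the groups compared, and each library left out. Totals over all symbols were added after the data were examined. Fits were tested on simulated data in which 200 genes were changed. For the combination against vehicle, edgeR called 21% of changes of 1.5-fold and 69% of changes of 2-fold. With against without panobinostat it called 56% and 92%. Other genes called numbered 3 and 7. Changes of 1.5-fold were thus often missed. Correlations used log2 CPM with a prior count of 2 and 100000 permutations.

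The 10 genes and the lists were chosen with earlier results of these data known; 1 listed gene is not reported here. All 10 are described, with listed genes that were called, others to show a role or range, and the 3 genes most like each member outside predicted loci.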

Additional observations from a re-analysis of the deposited data

Results flagged for a closer look

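In each group of 4 libraries, the gap between the highest or lowest library and its nearest neighbour was divided by the range of the group, and a ratio above Dixon's critical value for 4 samples was flagged, for 10 genes in 4 groups. Chance flags about 1 in 20 groups, and 4 of 40 were flagged here. Trastuzumab mouse 15 had the highest Mmp3 level of its group, 254.8 CPM, beside 106.4 to 127.4 CPM in the other 3 libraries. Panobinostat mouse 13 had the lowest Mmp9 level, 17.88 CPM, beside 25.25 to 25.47 CPM. Combination mouse 16 had the highest Mmp12 level, 136.0 CPM, beside 74.1 to 78.8 CPM. Combination mouse 2 had the highest Mmp13 level, 71.51 CPM, beside 29.28 to 35.61 CPM. The 4 flags lie in 4 different libraries.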

How the results depend on the processing

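No paired analysis was possible because no mouse number occurs in more than 1 group. With each of the 16 libraries left out in turn, the number of the 10 genes called ran from 0 to 1 for the combination against vehicle (1 in all libraries) and from 0 to 2 with against without panobinostat (2 in all). For the combination against vehicle it was 0 with no filter on low counts, where Timp2 had an adjusted p of 0.0563, and 0 when only the groups compared were fitted, where it had 0.148. The first of these fits tests more genes and the second uses fewer libraries. DESeq2 called 2 of the 10 for panobinostat against vehicle, beside 147 of all genes. With against without panobinostat DESeq2 called 4 of the 10, beside 615 of all genes, where edgeR called 471. There limma voom called 1 of the 10, beside 428 of all genes, and gave Mmp9 an adjusted p of 0.0535. The cause was not tested. In the other comparisons the number of the 10 genes called stayed at 0 in every setting run. Counts of all genes called moved more than 1.5 times for panobinostat against vehicle (30, from 3 to 72 without a library, 147 by DESeq2, 3 by voom), the combination against trastuzumab (98, 3 to 179, 225 by DESeq2, 11 by voom), the combination against vehicle (343, 201 to 379, 525 by DESeq2, 127 with only the groups compared) and with against without trastuzumab (23, 2 to 33, 60 by DESeq2). DESeq2 called 8 for trastuzumab and 9 for the combination against panobinostat, where edgeR called 0. Of the 80 log2 changes of the 10 genes, 25 changed sign when some library was left out, none of them called. For the combination against vehicle these ranges were Mmp11 from -0.17 to 0.029, Mmp3 from -0.60 to 0.11, Mmp13 from -0.12 to 0.66 and Timp1 from -0.21 to 0.015. For panobinostat against vehicle these ranges were Mmp13 from -0.54 to 0.053. For trastuzumab against vehicle these ranges were Mmp13 from -0.82 to 0.11, Mmp14 from -0.12 to 0.018 and Timp3 from -0.082 to 0.18. For the interaction these ranges were Mmp12 from -0.63 to 0.12, Timp3 from -0.10 to 0.21 and Mmp9 from -0.33 to 0.15. With against without panobinostat these ranges were Mmp3 from -0.27 to 0.14 and Mmp13 from -0.095 to 0.37. With against without trastuzumab these ranges were Mmp3 from -0.33 to 0.029, Timp1 from -0.093 to 0.049, Mmp14 from 0.00 to 0.063, Mmp13 from -0.10 to 0.36, Mmp2 from -0.13 to 0.053 and Mmp11 from -0.015 to 0.086. For the combination against trastuzumab these ranges were Mmp11 from -0.048 to 0.15, Mmp12 from -0.096 to 0.37 and Timp1 from -0.082 to 0.17. For the combination against panobinostat these ranges were Timp1 from -0.037 to 0.24, Timp2 from -0.13 to 0.018 and Timp3 from -0.043 to 0.27. With total-count scaling Mmp11 was 0.006 for the combination against vehicle. The cause of these changes of sign was not tested. With 4 mice a group, Mmp13, Mmp3 and Mmp12 had the largest mean coefficients of variation, at 49.6%, 43.6% and 43.3%. The source of that spread was not tested.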
